A study of Mus musculus with 6 samples.

Results

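The RNA levels of 51 genes of the lysosome and of its proton pump were examined in mouse prostates that were either castrated or intact. The genes were listed by symbol from their known roles: 36 encode lysosomal hydrolases, their helpers, membrane proteins and the regulator Tfeb, and 15 encode the widely expressed subunits and accessory proteins of the vacuolar proton pump. All 51 were found among the 24421 gene symbols of the deposited tables. Of these, 50 passed the filter on low values and were tested among 13898 genes, and the remaining gene, Atp6v0c, is described by its reads.

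The castrated group held 4 samples and the intact group 2. Both groups carried PB-Cre4, in which a probasin promoter active in prostate epithelium drives Cre recombinase. They also carried the same LoxP-flanked alleles, which Cre can delete, so no sample was without this genotype. How far the deletion went in each sample was not tested. The labels give neither the age of the animals nor the time since castration, and do not tie each sample to an animal of its own. The p-values therefore describe the spread among these 6 samples only, part of which may be technical.

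Lysosomes are acidic compartments in which proteins, sugars, lipids and sulfated polymers are taken apart by hydrolases that work at low pH. The acid comes from the vacuolar proton pump, whose cytosolic V1 sector hydrolyses ATP and whose membrane V0 sector carries the protons. In many cell types the transcription factor TFEB binds short palindromes built on CACGTG, found near the start of many lysosomal genes. Castration removes the main source of androgens, and in the prostate the epithelium is the tissue layer best known to depend on them.

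To show where that sequence lies, the windows from 250 bases before to 50 bases after the annotated starts were searched on both strands, using RefSeq sequences of build GRCm38.p6, which matched 42 of the 51 genes. CACGTG occurred in 15 of the 42 genes (35.7%), against 8.09% of all genes with a window. The longer TCACGTGA, which contains CACGTG, occurred in 6 of the 42 (14.3%), against 1.12% of all genes. The following sites are examples from these 15 genes, with CACGTG in capitals. Sites of the remaining genes, such as Ctsl (236 bases before the start), are not shown. The Lamp1 stretch begins 65 bases before the annotated start and holds all 4 of its CACGTG copies, and in the other sites CACGTG begins 98 (Ctsd), 45 (Mcoln1), 48 (Glb1), 194 (Gla) and 131 (Atp6v1a) bases before it.
Lamp1, chr8:13159096-13159155, plus strand: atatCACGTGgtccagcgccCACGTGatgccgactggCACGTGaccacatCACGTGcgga
Ctsd, chr7:142387908-142387937, minus strand: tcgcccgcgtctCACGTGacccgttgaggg
Mcoln1, chr8:3500462-3500491, plus strand: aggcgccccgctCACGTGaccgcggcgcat
Glb1, chr9:114401018-114401047, plus strand: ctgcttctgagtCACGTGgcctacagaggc
Gla, chrX:134601182-134601211, minus strand: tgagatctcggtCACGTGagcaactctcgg
Atp6v1a, chr16:44139373-44139402, minus strand: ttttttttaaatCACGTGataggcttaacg

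Tfeb and Grn, the only 2 of the 50 genes past the test threshold, hold no CACGTG in these windows. The 250 bases before the start of Grn and before 1 of the 3 listed starts of Tfeb are shown for comparison, with the looser CANNTG, which 75.0% of all genes hold, in capitals. The 250 bases before each of the other 2 Tfeb starts hold 0 copies of CANNTG.
Grn, chr11:102430257-102430506, plus strand: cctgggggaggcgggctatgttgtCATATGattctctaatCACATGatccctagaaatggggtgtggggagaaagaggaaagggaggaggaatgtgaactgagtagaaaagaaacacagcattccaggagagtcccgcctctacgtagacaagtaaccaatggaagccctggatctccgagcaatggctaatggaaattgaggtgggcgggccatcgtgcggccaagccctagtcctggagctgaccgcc
Tfeb, chr17:47785494-47785743, plus strand: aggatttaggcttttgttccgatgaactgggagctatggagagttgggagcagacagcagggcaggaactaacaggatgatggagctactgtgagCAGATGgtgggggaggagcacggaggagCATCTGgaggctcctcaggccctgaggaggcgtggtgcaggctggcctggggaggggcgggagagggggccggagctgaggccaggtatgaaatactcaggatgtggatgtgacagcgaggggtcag
AGAACA, an arm of the androgen receptor's palindrome, was in 6 of the 42 genes (14.3%), against 21.3% of all genes.

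Reads counted in genes ran from 43679297 to 59170793 in the 6 samples. The deposited CPM (reads per 1000000 counted in genes) were divided by size factors of 0.981 to 1.05 and are called rescaled CPM here. Castrated sample 4 stood apart from castrated samples 1 and 3, with correlations of log2 values of 0.941 and 0.954 against 0.988 between those samples. It lay closer to castrated sample 2 (0.970), which correlated at 0.969 and 0.974 with castrated samples 1 and 3. Results that rest on castrated sample 4 are given with and without it. Luminal keratin Krt8 lay at 1532 to 2499 rescaled CPM in castrated and at 1926 to 2331 in intact samples, so epithelium was present in each, whereas the prostate secretory gene Pbsn was low throughout, at 0.209 to 2.47 and 2.99 to 7.45.

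Across the 50 tested genes, castration went with little movement of the list as a whole. The median log2 difference (castrated minus intact) was -0.04, against 0.00 for all 13898 genes, with 22 genes above 0 and 28 below. The median of the 50 lay above that of all genes with quantile normalization (0.02, against 0.01 for all genes) and without castrated sample 4 (0.05, against 0.01), so its side of the all-gene median depends on the scaling and on that sample. On CPM as deposited, a scaling that lifts the median of all genes to 0.05, the 50 stayed below it at 0.01. In limma with Benjamini-Hochberg adjustment over all tested genes, 1 of the 50 rose (Tfeb) and 1 fell (Grn), 2 of 50, where 1.97% of all tested genes passed (0.698% higher and 1.27% lower). Without castrated sample 4 there were 4 (Tfeb and Ctsl higher, Grn and Glb1 lower), where 7.63% of 13786 genes passed (3.38% higher and 4.25% lower). Without castrated sample 1, 2 or 3 there were 0, where 78, 83 and 46 of all tested genes passed. On recovered reads edgeR called 1, Grn, where 1.46% of all genes passed (0.389% higher and 1.07% lower). DESeq2 called 6 (Tfeb, Ctsl and Ids higher, Grn, Glb1 and Gusb lower), where 9.3% passed (4.76% higher and 4.54% lower), and limma with array weights called 3 (Tfeb higher, Grn and Glb1 lower), where 6.86% passed (3.02% higher and 3.84% lower). At an unadjusted p under 0.05 there were 5 higher and 8 lower, 13 of 50 (26.0%), against 15.9% of all tested genes (7.84% higher and 8.06% lower). The groups did not overlap in 21 of the 50 genes (42.0%), against 26.6% of all tested genes, with castrated samples above in 9 and below in 12 (13.4% and 13.2% of all tested genes). The 95% interval of the difference lay within a 2-fold change in either direction for 47 of the 50, against 73.7% of all tested genes, and the exceptions were Ctsl, Glb1 and Tfeb.

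**Figure D1:**
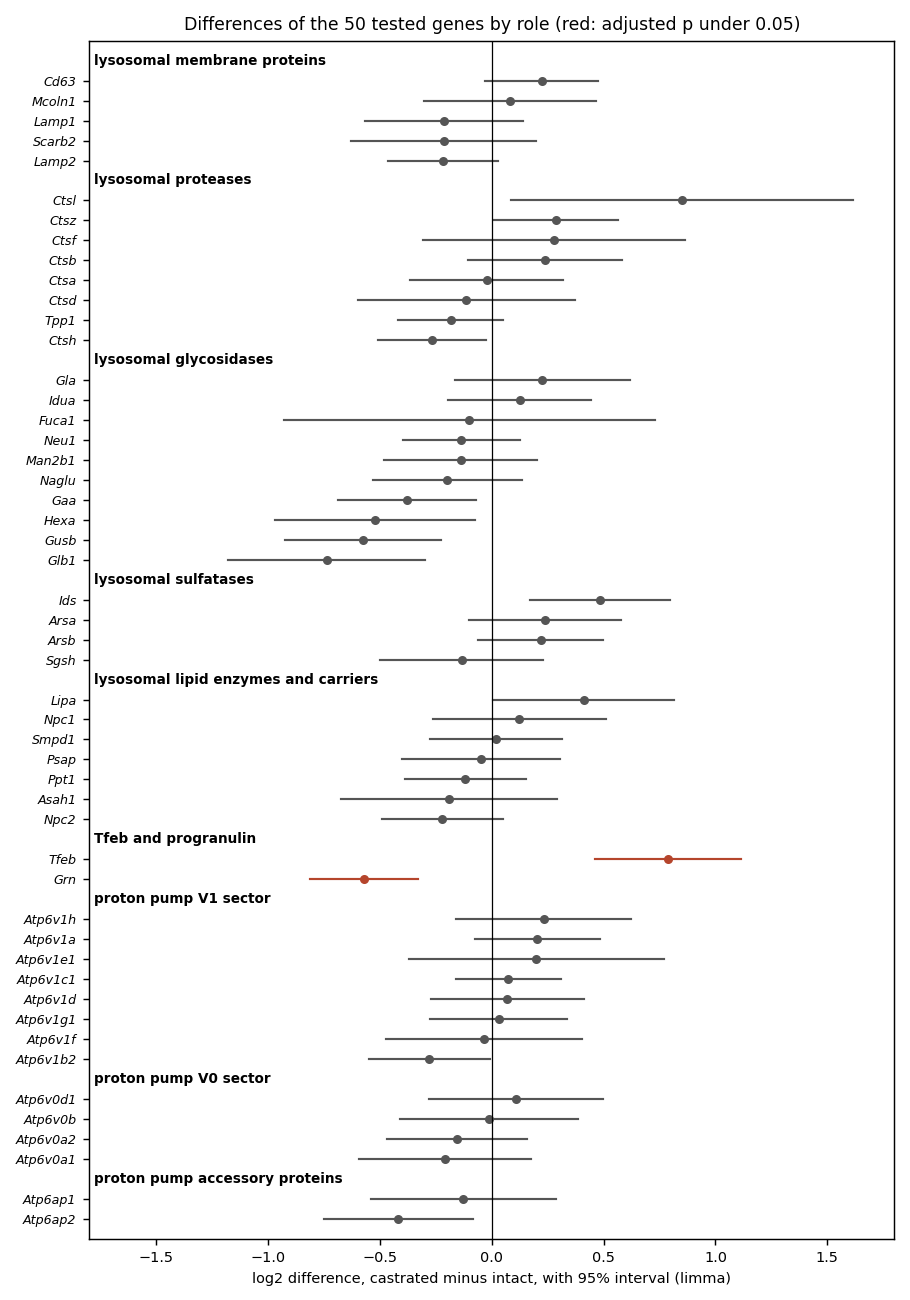
Log2 difference between castrated and intact samples (points) with its 95% interval (lines) for the 50 tested genes, on the log2(rescaled CPM + 0.5) scale and grouped by role. Tfeb (0.79) and Grn (-0.57), in red, passed the adjusted threshold, and the pump subunits lie between -0.42 and 0.23.

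Tfeb, the transcription factor that drives lysosomal genes (chromosome 17, 47737030 to 47792419), rose 1.73-fold. It was at 21.2, 26.2, 26.4 and 22.6 rescaled CPM in castrated samples 1 to 4, against 13.8 and 13.6 in intact samples 1 and 2. Every castrated sample lay above both intact samples, and the intact pair was nearly identical. The means were 24.1 ± 2.62 (SD, n = 4) in castrated and 13.7 ± 0.0910 (n = 2) in intact samples, a log2 difference of 0.79 (95% interval 0.46 to 1.11, limma adjusted p = 0.0470). The value lay just inside the threshold: the call ended with no filter (adjusted p = 0.0735), with quantile normalization (adjusted p = 0.0502), without a mean-variance trend (adjusted p = 0.0544), in edgeR (adjusted p = 0.0535; DESeq2 3.89e-05) and with any single sample other than castrated sample 4 left out (adjusted p from 0.0731 to 0.282). In all 18 alternatives together the log2 difference stayed between 0.74 and 0.85.

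Grn encodes progranulin, a secreted protein that is delivered to lysosomes and cut there into granulins (chromosome 11, 102430315 to 102437048), and it fell 1.49-fold. It was at 585, 558, 588 and 564 rescaled CPM in castrated samples 1 to 4, against 881 and 824 in intact samples 1 and 2. The 4 castrated samples differed from each other far less than they did from either intact sample. The means were 574 ± 15.2 (SD, n = 4) in castrated and 853 ± 41.0 (n = 2) in intact samples, a log2 difference of -0.57 (95% interval -0.81 to -0.33, limma adjusted p = 0.0490). edgeR and DESeq2 on the recovered reads also called it (adjusted p = 0.0462 and 4.59e-10), while the limma call ended on CPM as deposited (adjusted p = 0.0581), with no filter (adjusted p = 0.0906), with quantile normalization (adjusted p = 0.0552), without a mean-variance trend (adjusted p = 0.0572) and with any single sample other than castrated sample 4 left out (adjusted p from 0.106 to 0.332). The log2 difference stayed between -0.62 and -0.52 in these 18 alternatives.

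Macrophages are rich in progranulin and lysosomal enzymes, so their markers are given here. Of 11 tested macrophage markers 0 passed the threshold in limma (0 higher and 1 lower at an unadjusted p under 0.05). Their log2 differences were positive for 4 and negative for 7. The 12 in the table summed to 987 to 1554 rescaled CPM in castrated and 1004 to 1251 in intact samples. The defining markers were present in each sample, with Adgre1 at 22.7 to 48.4 in castrated and 23.8 to 31.3 in intact samples and Csf1r at 65.6 to 124 and 77.6 to 88.1. Neutrophil markers moved with the groups: 4 of 5 tested rose, and the 7 in the table, of which 1 had no read in any sample, summed to 199 to 352 in castrated and 29.6 to 67.8 in intact samples. Basal epithelial markers, with 1 of 6 lower, summed to 728, 3604, 928 and 2762 in castrated samples 1 to 4. In intact samples they summed to 3580 and 3971. Luminal markers summed to 6107 to 9336 in castrated and 9033 to 9249 in intact samples, with 0 of 6 past the threshold (1 lower at an unadjusted p under 0.05). Other marker sums also lay apart between the groups. Smooth muscle markers summed to 256 to 460 in castrated and 193 to 208 in intact samples, with 0 of 6 past the threshold in limma (4 higher at an unadjusted p under 0.05). Prostate secretory and identity markers summed to 277 to 437 in castrated and 504 to 717 in intact samples, with 2 of 6 lower, and markers of acid-secreting cells to 39.1 to 161 and 3.53 to 17.96, with 3 of 6 higher. Of all tested genes, 0.698% were called higher and 1.27% lower. Apart from Foxi1 and Slc4a9, the acid-secreting list holds only pump subunits made in specialised cells. Its 3 calls are Foxi1, Atp6v0d2 and Atp6v1g3, so it is not separate from the pump values given below. The part of any of these marker lists in the values of the lysosomal genes was not tested, and in these bulk samples fewer cells of a type cannot be told apart from less RNA per cell.

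**Figure D2:**
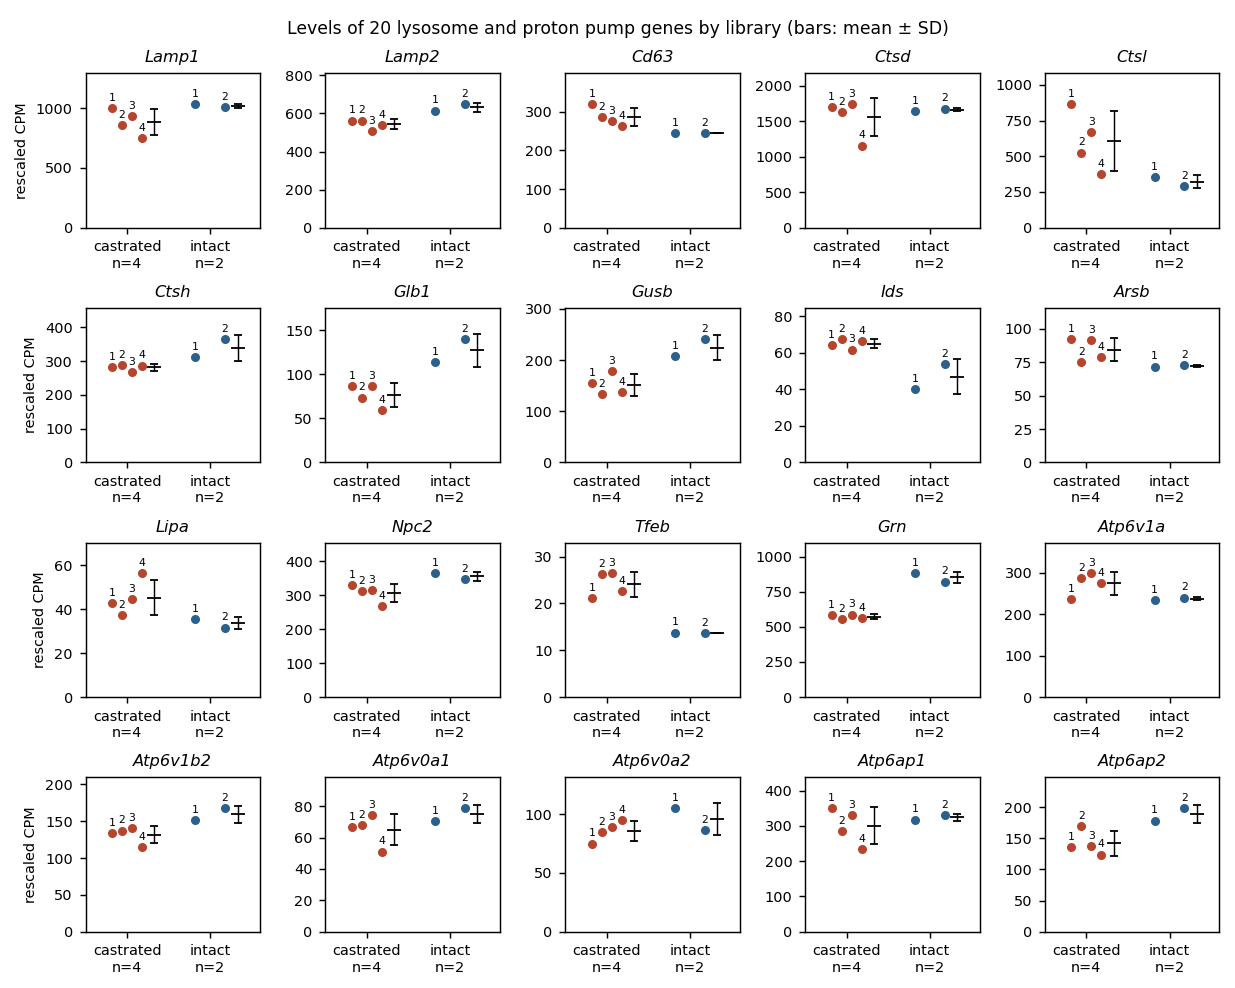
Rescaled CPM of 20 genes in each sample (numbered points; linear axes from 0), with castrated samples on the left and intact samples on the right, and the mean ± SD beside each group. Tfeb lies higher and Grn lower in all 4 castrated samples, while Ctsd and Lamp1 are lowest in castrated sample 4.

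Of 5 lysosomal membrane proteins, 0 passed the threshold in limma (0 at an unadjusted p under 0.05). The groups did not overlap for 3 (60.0%, against 26.6% of all tested genes). Lamp1, an abundant glycoprotein that lines the inside of the lysosomal membrane, was at 999.8, 861, 932 and 752 rescaled CPM in castrated samples 1 to 4, against 1034 and 1009 in intact samples. Its relative Lamp2, also a receptor for proteins entering lysosomes, was at 563, 562, 507 and 540.4 in castrated and 615 and 649 in intact samples. The castrated values of each lay below the intact ones, by a narrow margin for Lamp1, with log2 differences of -0.21 (interval -0.57 to 0.14, limma adjusted p = 0.563) and -0.22 (interval -0.46 to 0.03, limma adjusted p = 0.367). Cd63, a tetraspanin of late endosomes and exosomes, was at 319.8, 286, 277 and 264 in castrated and 245 and 245 in intact samples, with the castrated samples above (log2 difference 0.22, limma adjusted p = 0.371). The groups overlapped for Scarb2, the carrier that brings glucocerebrosidase to lysosomes, and for the calcium channel gene Mcoln1, whose log2 differences were -0.21 and 0.08.

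The 8 proteases also gave 0 calls in limma (2 higher and 1 lower at an unadjusted p under 0.05), with 4 positive and 4 negative log2 differences. At that unadjusted p stood 7.84% of all tested genes on the higher and 8.06% on the lower side. Ctsl, the cysteine protease cathepsin L (chromosome 13, 64359337 to 64370890), was at 865, 526, 667 and 373 rescaled CPM in castrated samples 1 to 4, against 354 and 292 in intact samples. All castrated samples lay above the intact ones, but castrated sample 4 did so only just. The log2 difference was 0.85 (95% interval 0.09 to 1.62, limma adjusted p = 0.258). It passed in limma without castrated sample 4 (log2 difference 1.06, adjusted p = 0.0414) and in DESeq2 (adjusted p = 0.0465). An antisense gene covers 26.8% of its exon bases and a gene on the same strand 6.09%, and no source used here says whether reads were counted by strand.

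Ctsd, the aspartic protease cathepsin D, was at 1699, 1628, 1742 and 1158 rescaled CPM in castrated samples 1 to 4, against 1649 and 1678 in intact samples. Castrated samples 1 to 3 lay around the intact ones and sample 4 well below them, so the log2 difference of -0.11 carried a wide 95% interval, -0.60 to 0.37 (limma adjusted p = 0.853), and it turned to 0.02 without castrated sample 4. A gene on the same strand covers 34.4% of the Ctsd exon bases, and how reads in these shared bases were counted was not tested. Ctsh, a cathepsin that trims protein ends, was at 282, 288, 268 and 287 in castrated and 313 and 366 in intact samples, below in every castrated sample but short of the threshold (log2 difference -0.27, limma adjusted p = 0.265). Ctsb and Ctsz, cysteine cathepsins like Ctsl, had higher values in every castrated sample, with log2 differences of 0.24 and 0.29 (limma adjusted p = 0.496 and 0.300). For Ctsb the margin was narrow, with castrated sample 4 at 1419 and intact sample 1 at 1414. Tpp1, the tripeptidyl peptidase, was below in each (log2 difference -0.18), but castrated sample 1 only just, at 115.4 against 115.8 in intact sample 1. The groups overlapped for Ctsa, the protective protein of galactosidase and neuraminidase, and for the cysteine cathepsin Ctsf (log2 differences -0.02 and 0.28).

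The glycosidases, which strip sugars from glycoproteins, glycolipids and polymers, had mostly negative log2 differences, 8 of 10, the median was -0.17, and all 4 genes whose groups did not overlap were lower in castrated samples (0 passed in limma, 4 lower at an unadjusted p under 0.05). Of all tested genes, 13.2% were lower without overlap and 8.06% were lower at an unadjusted p under 0.05. Glb1, the beta-galactosidase whose activity is used as a stain for senescent cells (chromosome 9, 114401076 to 114474898), was at 86.9, 73.6, 86.3 and 59.1 rescaled CPM in castrated samples 1 to 4, against 114 and 140.4 in intact samples. Every castrated sample lay below both intact ones, with means of 76.5 ± 13.1 (SD, n = 4) in castrated and 127 ± 18.7 (n = 2) in intact samples. The log2 difference was -0.74 (95% interval -1.18 to -0.30, limma adjusted p = 0.110), and it passed in limma with array weights and without castrated sample 4 (log2 difference -0.62, adjusted p = 0.0424) and in DESeq2 (adjusted p = 0.00834).

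Gusb, the beta-glucuronidase that acts on glycosaminoglycans, was at 155, 133, 179 and 138 rescaled CPM in castrated samples 1 to 4, against 207 and 242 in intact samples, again with no overlap. The log2 difference was -0.57 (95% interval -0.92 to -0.23, limma adjusted p = 0.113; DESeq2 adjusted p = 0.0140). Hexa, which acts in ganglioside breakdown, and Gaa, the enzyme that breaks down glycogen in lysosomes, were also below in every castrated sample, with log2 differences of -0.52 and -0.38 (limma adjusted p = 0.235 and 0.212). Fuca1, the lysosomal fucosidase, overlapped and spread widely, at 452, 297, 389 and 187 in castrated and 297 and 384 in intact samples. The groups also overlapped for the other 5 glycosidases, whose log2 differences were 0.23 for Gla, 0.12 for Idua, -0.14 for Man2b1, -0.14 for Neu1 and -0.20 for Naglu.

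The 4 sulfatases, which remove sulfate from glycosaminoglycans and sulfatides, had 3 positive log2 differences, a median of 0.23 and 0 calls in limma. At an unadjusted p under 0.05, 1 was higher, as were 7.84% of all tested genes. Ids, the iduronate sulfatase, was at 64.2, 67.6, 61.7 and 66.4 rescaled CPM in castrated samples 1 to 4, against 40.0 and 53.6 in intact samples. The castrated samples were close together and all higher, with a log2 difference of 0.48 (95% interval 0.17 to 0.80, limma adjusted p = 0.133; DESeq2 adjusted p = 0.0406). Arsb, which acts on dermatan sulfate, was at 92.6, 75.0, 91.5 and 79.1 in castrated and 71.7 and 72.9 in intact samples, above in each (log2 difference 0.22, limma adjusted p = 0.433), with an antisense gene over 39.9% of its exon bases. Arsa, which acts on sulfatides, was also above in every castrated sample (log2 difference 0.24, limma adjusted p = 0.494), whereas the groups overlapped for Sgsh, which acts on heparan sulfate (log2 difference -0.14).

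Lipid enzymes and carriers gave 0 calls among 7 in limma (1 higher at an unadjusted p under 0.05, as were 7.84% of all tested genes). Lipa, the acid lipase that frees cholesterol and fatty acids, was at 42.8, 37.5, 44.6 and 56.3 rescaled CPM in castrated samples 1 to 4, against 35.6 and 31.6 in intact samples. Its groups did not overlap, with a log2 difference of 0.41 (95% interval 0.01 to 0.82, limma adjusted p = 0.306). Npc2, a soluble protein that hands on cholesterol inside lysosomes, was at 329, 312, 315 and 268 in castrated and 365 and 347 in intact samples, below in each (log2 difference -0.22, limma adjusted p = 0.410). Psap, the precursor of the saposins that present lipids to their hydrolases, was at 1611 to 1885 in castrated and 1654 to 1872 in intact samples, and the groups overlapped (log2 difference -0.05). They overlapped as well for the ceramidase Asah1 (-0.19), the sphingomyelinase Smpd1 (0.02), the cholesterol carrier Npc1 (0.12) and the thioesterase Ppt1 (-0.12), each value being a log2 difference.

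Among the widely expressed proton pump genes, 0 of 14 tested passed in limma. At an unadjusted p under 0.05, 0 were higher and 2 lower (14.3%, against 15.9% of all tested genes in either direction). The median log2 difference was 0.01, and the groups did not overlap in 2 of 14 (14.3%), against 26.6% of all tested genes. In the 36 lysosomal genes that count was 19 (52.8%), and the difference between these lists was not tested. Atp6v1a, the catalytic V1 subunit that hydrolyses ATP, was at 236, 287, 298 and 275 rescaled CPM in castrated samples 1 to 4, against 234 and 239.8 in intact samples. Castrated sample 1 lay between the intact values and the others above, with a log2 difference of 0.20 (95% interval -0.08 to 0.48, limma adjusted p = 0.474). Its V1 partner Atp6v1b2 was at 134, 137, 141 and 115 in castrated and 151 and 168 in intact samples, below in each (log2 difference -0.28, interval -0.55 to -0.01, limma adjusted p = 0.301). The other 6 V1 subunits, Atp6v1c1, Atp6v1d, Atp6v1e1, Atp6v1f, Atp6v1g1 and Atp6v1h, had overlapping groups and log2 differences between -0.04 (Atp6v1f) and 0.23 (Atp6v1h).

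In the V0 sector, the membrane subunits Atp6v0a1 and Atp6v0a2, which help form the path of the protons, had overlapping groups and log2 differences of -0.21 and -0.15 (limma adjusted p = 0.601 and 0.644). The ring subunit Atp6v0b and the stalk subunit Atp6v0d1 overlapped too, with log2 differences of -0.01 and 0.11. Among the accessory proteins, Atp6ap2, also known as the prorenin receptor, was at 135, 169.6, 138 and 124 rescaled CPM in castrated samples 1 to 4, against 178 and 198 in intact samples. No castrated sample reached the intact level (log2 difference -0.42, interval -0.75 to -0.08, limma adjusted p = 0.203). Atp6ap1, its partner in pump assembly, overlapped (log2 difference -0.13, limma adjusted p = 0.791). Atp6v0c, the proton-carrying ring subunit, had 0 to 5 reads in each sample, at or near the floor of 3 reads (0.0507 to 0.0687 CPM, counting error only), and no difference was read from it. It is a core subunit of the pump in most cells. Whether the counting assigned its reads in full was not tested, so the low count is not taken as absence of its RNA.

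Castrated sample 4 was the lowest of the 6 samples in 11 of the 14 tested pump genes (78.6%) and in 13 of the 36 lysosomal genes (36.1%), against 26.5% of all tested genes. The 15 pump genes summed to 2166, 2084, 2140 and 1693 rescaled CPM in castrated samples 1 to 4, against 2027 and 2041 in intact samples. Castrated samples 1 to 3 thus lay slightly above the intact pair and sample 4 below it. Of the castrated group, the same sample had the highest macrophage (1554), fibroblast (1929) and endothelial (128) marker sums. It also had the lowest luminal (6107) and acid-secreting cell (39.1) marker sums, and the part of these cells in its pump values was not tested. The acid-secreting cell list itself holds specialised pump subunits, none of them among the 15 pump genes.

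**Figure D3:**
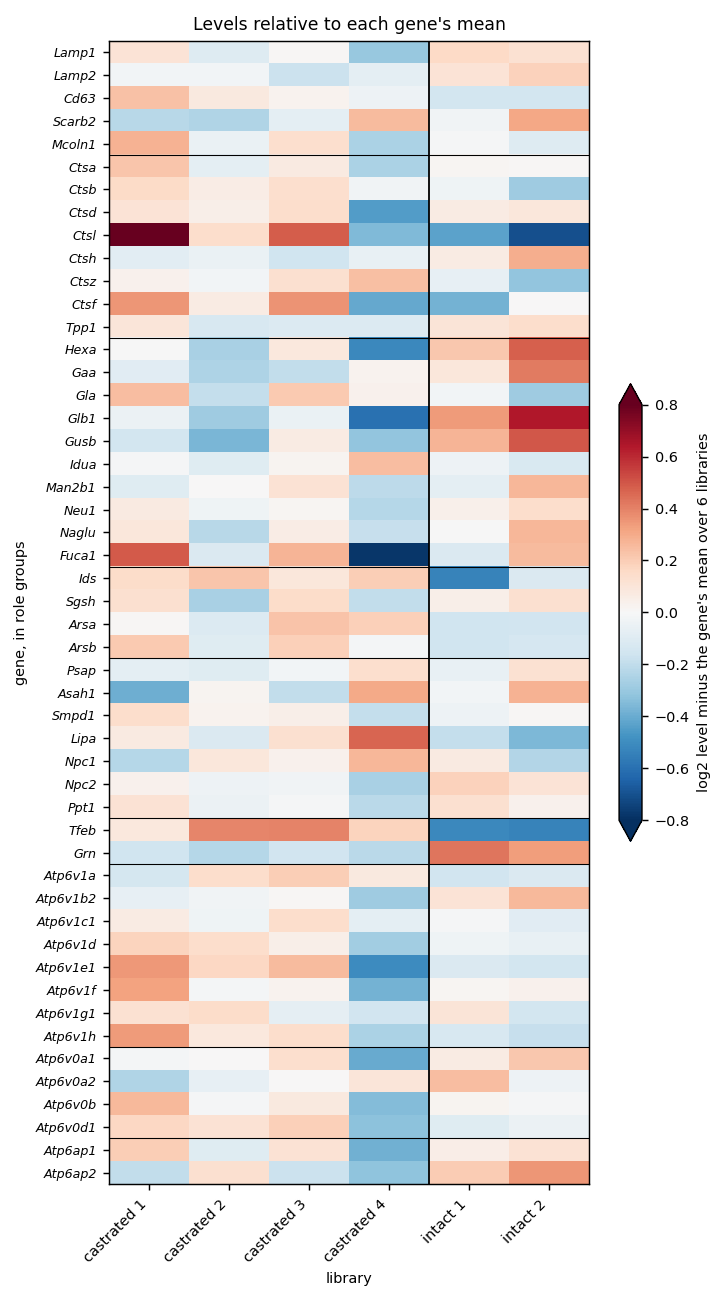
Log2(rescaled CPM + 0.5) minus the mean of the gene over the 6 samples, for the 50 tested genes (down) in castrated and then intact samples (across), with the colour scale ending at 0.8 in either direction. The column of castrated sample 4 is low for 11 of the 14 pump genes.

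Levels of different genes were compared per kilobase of annotated exon, with bases shared with other genes, as in Ctsd, kept in the length. Ctsd was highest in each group, at 662 ± 115 rescaled CPM per kb in castrated (SD, n = 4) and 708 ± 8.86 in intact samples (n = 2), followed by Psap at 622 ± 45.8 and 642 ± 56.1. These neighbours lay within their spread in the castrated samples. Lamp1 came next, at 331 ± 39.6 in castrated and 382 ± 6.53 in intact samples. The pump genes ran from Atp6v1f at 117 ± 22.8 in castrated and 118 ± 0.851 in intact samples down to Atp6v0a1 at 9.92 ± 1.51 in castrated samples and to Atp6v1h at 9.16 ± 0.243 in intact samples, leaving out Atp6v0c. Tfeb was the lowest tested gene in each group, at 4.25 ± 0.463 and 2.41 ± 0.0161. In castrated samples the next gene, Npc1 at 4.40 ± 0.616, lay within the spread.

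As a description over the 6 samples, which includes the difference between the groups, the levels most like those of Tfeb were those of Atp6v1a, Ids and Ctsb, with Pearson correlations of log2 values of 0.836, 0.828 and 0.749. The levels most like those of Grn were those of Gusb, Glb1 and Lamp2, with correlations of 0.884, 0.868 and 0.832. The 15 genes with CACGTG had a median log2 difference of -0.01 and 0 calls in limma, and the 26 tested genes with a window but without it a median of -0.11 and 2 calls.

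Among 75 other tested genes of lysosomal hydrolysis, membranes, sorting and regulation, 0 passed in limma and the median log2 difference was -0.04. At an unadjusted p under 0.05, 4 were higher and 7 lower (14.7%, against 15.9% of all tested genes). Of the pump subunits made in specialised cells, 2 of 9 tested rose, where 0.698% of all tested genes did, and 0 fell. At an unadjusted p under 0.05, 3 were higher and 1 lower, against 7.84% and 8.06% of all tested genes. Atp6v0d2 was at 37.9, 47.7, 55.7 and 14.4 rescaled CPM in castrated samples 1 to 4, against 0.560 and 2.79 in intact samples (log2 difference 4.24, limma adjusted p = 0.0346; edgeR adjusted p = 0.0699). Atp6v1g3 was at 18.3, 21.9, 27.9 and 4.33 in castrated and 0.0700 and 0.593 in intact samples (log2 difference 4.30, limma adjusted p = 0.0434; edgeR adjusted p = 0.0741). Castrated samples lay above the intact pair for each, with sample 4 the lowest of them, and each call ended with any single sample other than castrated sample 4 left out. Foxi1, the transcription factor of acid-secreting cells, followed the same order, at 23.4, 30.6, 40.5 and 7.04 in castrated and 0.0467 and 1.05 in intact samples, and its part was not tested.

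Per kilobase, Atp6v0d2 made up 12.7 ± 4.30% of the d subunit RNA in castrated samples (SD, n = 4) and 0.704 ± 0.649% in intact samples (n = 2), the rest being Atp6v0d1. Atp6v1b1 made up 16.5 ± 6.23% of the B subunit RNA in castrated and 4.29 ± 3.98% in intact samples. The widely expressed subunit held the larger share at the d and B positions in every sample. At the C position Atp6v1c2 made up 20.6 ± 10.3% in castrated and 29.7 ± 3.62% in intact samples, and the values overlapped. At the a position Tcirg1, best known from osteoclasts, was the largest share in every sample, at 55.8 ± 3.12% in castrated and 61.1 ± 0.0573% in intact samples. Its mean level was 29.4 rescaled CPM per kb in castrated and 40.8 in intact samples. Tcirg1 did not pass in the main analysis, but was called in DESeq2, with array weights and without castrated sample 4.

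**Figure D4:**
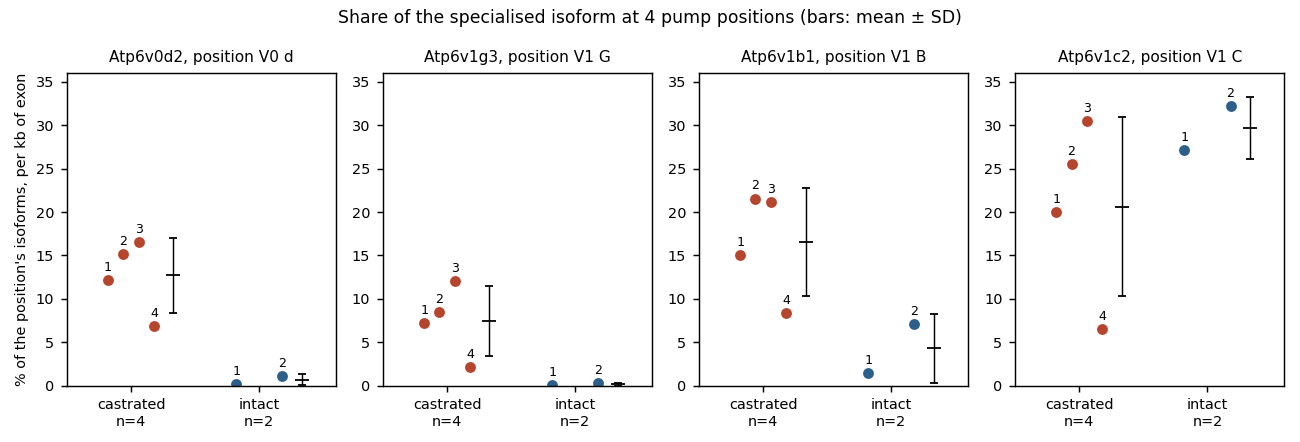
Share of the specialised subunits Atp6v0d2, Atp6v1g3, Atp6v1b1 and Atp6v1c2 in the RNA of their pump position, in percent per kilobase, for each castrated (left) and intact (right) sample. Atp6v0d2 lies at 6.88% to 16.6% in castrated and at 0.244% to 1.16% in intact samples.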

How the data were processed

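RNA sequencing of 4 castrated and 2 intact prostates was used, 1 table per sample. The deposited values are CPM per gene symbol, made by the authors with TopHat2, HTSeq and edgeR, per the submitters' processing notes, which give no versions here; annotation release and strand setting are not given in the sources used here. Every CPM value was a whole number of reads (100% within 1e-06), so reads were recovered for edgeR 4.0.16 (quasi-likelihood) and DESeq2 1.42.0 as alternatives. The main test was limma 3.58.1 in R 4.3.3 on log2(rescaled CPM + 0.5), with median-of-ratios size factors, a mean-variance trend, a filter keeping genes that reached a CPM of 1 in 2 or more samples, and Benjamini-Hochberg adjustment over 13898 genes (threshold 0.05). Fold changes on this scale understate those of low genes. Intervals are 95%. Exon lengths and overlaps came from GENCODE M21. The test was checked on counts simulated from these data. That check required recovery only of changes larger than any among the 50 tested genes listed here. It does not say how often changes of their size would be found. The members and lists were chosen with earlier results of these data known. Genes described in full were those past the threshold, the 2 with the smallest p in each role group, and Lamp1, Ctsd, Tfeb and Atp6v1a. Some genes are not reported here.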

Additional observations from a re-analysis of the deposited data

Results flagged for a closer look

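Of 50 genes screened for a sample far from the rest of the 4 castrated samples, 2 were found, where chance alone gives about 1 in 20. Tpp1, the tripeptidyl peptidase, was at 115 rescaled CPM in castrated sample 1, the highest of the castrated group, where the other 3 lay at 98.6 to 99.9. Atp6v0d1, the widely expressed V0 d subunit, was at 129 in castrated sample 4, the lowest of the castrated group.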

How the results depend on the processing

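The median log2 difference of the 50 genes ranged from -0.10 to 0.05 over the 18 alternatives, within the spread between replicates (SD 0.116). The number of them called, 2 in the main analysis, was 0 with no filter, with quantile normalization and without a mean-variance trend, 1 on CPM as deposited, in edgeR and with a replicate block, 6 in DESeq2, and 0 to 4 with 1 sample left out. Of all tested genes, 274 in the main analysis, the calls numbered 170 with no filter, 954 with array weights, 1293 in DESeq2, 417 with the replicate block, and 1 to 1052 with 1 sample left out. The other pathway genes were here counted together with the specialised pump subunits, 84 tested genes. Of these, 2 were called in the main analysis, Atp6v0d2 and Atp6v1g3. There was 1 call with a pseudocount of 1 and without a trend, and 0 with no filter and in edgeR. There were 7 with array weights and in DESeq2, 4 with the replicate block, and 0 to 8 with 1 castrated sample left out. The cause of these shifts was not tested.

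Only genes with no call and log2 differences near 0 changed sign. With quantile normalization Ctsd was at 0.0032, Ctsa at 0.031, Psap at 0.044, Atp6v1f at 0.0035 and Atp6v0b at 0.047. On CPM as deposited, where the median of all genes is 0.05 and these genes stay below it, Ctsa was at 0.024, Atp6v1f at 0.012 and Atp6v0b at 0.035. With the replicate block Ctsa was at 0.058, Fuca1 at 0.12, Atp6v1f at 0.13 and Atp6v0b at 0.12. With array weights Atp6v1f was at 4.8e-05 and Atp6v0b at 0.026. In DESeq2 Atp6v0b was at 0.0037. With 1 sample left out the ranges were -0.17 to 0.0201 for Ctsd, -0.0016 to 0.17 for Mcoln1, -0.10 to 0.056 for Ctsa, -0.31 to 0.032 for Man2b1, -0.29 to 0.15 for Fuca1, -0.14 to 0.039 for Psap, -0.028 to 0.084 for Smpd1, -0.031 to 0.27 for Npc1, -0.15 to 0.085 for Atp6v1f, -0.096 to 0.15 for Atp6v1g1 and -0.10 to 0.099 for Atp6v0b.

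Replicate numbers 1 and 2 occur in each group, but same-numbered samples deviated together only weakly (correlations 0.0755 and 0.226, 2 pairs), so the numbers were not taken to pair the samples. With the replicate block, Ctsl was called (log2 difference 1.07, limma adjusted p = 0.0428), Tfeb (adjusted p = 0.101) and Grn (adjusted p = 0.0730) were not, and the median of the 50 genes was 0.02. With 2 intact samples, leaving 1 out assumes that the other varies like the castrated ones.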

Other observations

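Gm2a, an activator protein that presents a ganglioside to its hydrolase, lies outside the naming rule and was chosen after its values were seen. It was at 64.0, 63.1, 60.4 and 76.1 rescaled CPM in castrated samples 1 to 4, against 108 and 98.1 in intact samples. Every castrated sample was lower, with a log2 difference of -0.65 that missed the threshold (limma adjusted p = 0.0552). Without castrated sample 4, limma called it (adjusted p = 0.0103).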
